A study of Mus musculus with 4 samples.

Results

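A set of 10 autosomal protein-coding genes that are imprinted in the mouse and act in growth and in the placenta were examined in blastocysts: *Igf2*, *Igf2r*, *Grb10*, *Cdkn1c*, *Phlda2*, *Ascl2*, *Sfmbt2*, *Peg3*, *Peg10*, and *Mest*. They were chosen by symbol, and each of the 10 was listed once among the 25039 gene symbols of RNA-seq and once among the 20756 of Ribo-seq. The study compared the transcriptome, the translatome, and the proteome of mouse oocytes and embryos. The libraries analysed here were of blastocysts only, 2 of RNA-seq (mRNA) and 2 of Ribo-seq (ribosome-protected fragments, RPF). All 4 came from wild-type, untreated hybrid embryos of 4-week-old C57BL/6J females and PWK/PhJ males (the strain label itself reads C57BL/6N x PWK). Those females had been induced to ovulate with hormones, and the embryos were taken as 8-cell embryos, grown to blastocysts in KSOM medium, and freed of the zona pellucida. The number of embryos pooled for a library was not given in the sources used here, and nothing said that the 2 libraries of an assay came from separate pools, so p-values measure only the spread between libraries, which may be technical. The values are not split by allele, so they do not show which parental copy was used.

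An imprinted gene is expressed from the maternal or the paternal copy according to marks laid down in the oocyte or the sperm. *Igf2*, *Sfmbt2*, *Peg3*, *Peg10*, and *Mest* are known as paternally expressed, and *Igf2r*, *Grb10*, *Cdkn1c*, *Phlda2*, and *Ascl2* as maternally expressed, with *Grb10* paternal in neurons. Many paternally expressed genes promote growth of the fetus and the placenta, and many maternally expressed ones restrain it. Most imprints rest on DNA methylation, whereas *Sfmbt2*, like *Gab1*, *Slc38a4*, *Smoc1*, and *Jade1*, is silenced on the maternal copy through H3K27me3 from the oocyte.

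The blastocyst label was checked against marker genes. All 7 trophectoderm markers were at or above 1 FPKM (fragments per kilobase, scaled to the library's size) in every library, with summed mRNA of 3045 and 2824 FPKM in replicates 1 and 2. The 6 epiblast and inner cell mass markers summed to 167 and 60.2 FPKM in mRNA, lower in RNA-seq replicate 2 for 6 of 6 genes. Of these, 3 reached 1 FPKM in both RNA-seq replicates, and *Sox2*, *Fgf4*, and *Klf2* did not. The 6 primitive endoderm markers summed to 161 and 119 FPKM, again lower for 6 of 6. Of these sums *Dab2* alone gave 148 and 110 FPKM, and 2 of the 6 reached 1 FPKM in both RNA-seq replicates. Of the 7 trophectoderm markers 5 were lower in RNA-seq replicate 2, while *Eomes* (15.5 and 32.4 FPKM) and *Elf5* (21.7 and 45.1 FPKM) were higher. In RPF the inner cell mass markers summed to 917 and 1108 FPKM and those of primitive endoderm to 633 and 598 FPKM. The 2 RNA-seq libraries thus differed in markers of the inner cells, and with only 2 neither can be called the unusual one. The part of this difference in the mRNA values below was not tested. In bulk samples, fewer cells of a type and less RNA per cell cannot be told apart. Of the 6 markers of differentiated placental trophoblast, *Prl3d1*, *Prl2c2*, and *Tpbpa* were at 0 in all 4 libraries, with sums of 1.13 to 3.35 FPKM over the list. Markers of oocytes, of cumulus and granulosa cells, and of sperm and testis summed to at most 1.92 FPKM, other than sperm and testis in Ribo-seq replicate 2 (33.7 FPKM, from *Prm2* alone).

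The depth behind these values was read from the steps between low FPKM values. They implied 5506834 and 5202963 fragments in RNA-seq but only 532661 and 484339 in Ribo-seq. At these totals 67.8% to 82.5% of the 400 lowest values used lay within 0.1 of a whole number. A total fixed in advance would give 20% by chance, but these totals were chosen within a set range to fit the same values. The percentages therefore describe the fit and do not test it. For a sequence of 1000 bases, 3 fragments were worth 0.681 and 0.721 FPKM in RNA-seq and 7.04 and 7.75 FPKM in Ribo-seq. Intervals below are exact Poisson intervals at the 95% level and cover counting error only, since PCR copies are not independent molecules. RPF values also ran higher than mRNA values in general. The genes with a mean of at least 1 FPKM in both assays numbered 8327. Their median RPF to mRNA ratio was 2.91 in replicate 1 and 2.63 in replicate 2. Such ratios set libraries of the same replicate number against each other, but these libraries share only that number. The pairing is therefore arbitrary, also for the raw ratios and the footprints at the median ratio below.

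The start of translation is shown for the 4 genes with enough of both signals to be compared, since RPF values count ribosomes on coding sequence. Each window holds 10 bases before the start codon and the codon with the 7 bases after it, 5′ to 3′, from GENCODE vM1 on NCBIM37 (the assembly also called mm9). Capitals mark the ATG and, where present, the purine 3 bases before it and the G just after it, the positions known to favour initiation. The first base of the codon lay at 149841715 on chromosome 7 for *Igf2* (minus strand, across a splice junction), at 12962399 on chromosome 17 for *Igf2r* (minus), at 10314937 on chromosome 2 for *Sfmbt2* (plus), and at 6671152 on chromosome 7 for *Peg3* (minus).
Igf2: ccaggtaccaATGGggatcc
Igf2r: gccacacGcgATGcgggccg
Sfmbt2: actcatcAgcATGGagagat
Peg3: gagtttcAagATGtaccatc

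*Sfmbt2* alone of these 4 held both favoured bases. *Igf2* had the G but not the purine, and *Igf2r* and *Peg3* had the purine but not the G. Over all 10 genes, 8 had the purine, 7 the G, and 6 both, beside 84.1%, 49.6%, and 41.6% of 19057 coding genes. *Grb10* was the only one of the 10 with neither.

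Promoters are shown for the gene with the most mRNA and for the gene with none. Both windows run from 250 bases before to 50 bases after the start of transcription, are taken from RefSeq on GRCm38.p6, and are written 5′ to 3′ on the gene's strand with each CG in capitals. The *Sfmbt2* window is chr2:10372186-10372485 (plus strand, the second of 2 starts listed) and the *Phlda2* window is chr7:143502475-143502774 (minus strand). Of the 2 *Sfmbt2* starts, the one with more CG was taken.
Sfmbt2: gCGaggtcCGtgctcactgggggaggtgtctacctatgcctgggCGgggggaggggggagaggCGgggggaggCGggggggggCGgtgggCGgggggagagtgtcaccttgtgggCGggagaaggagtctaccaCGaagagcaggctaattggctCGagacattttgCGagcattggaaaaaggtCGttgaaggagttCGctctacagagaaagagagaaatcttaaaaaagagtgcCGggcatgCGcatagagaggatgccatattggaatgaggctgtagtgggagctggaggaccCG
Phlda2: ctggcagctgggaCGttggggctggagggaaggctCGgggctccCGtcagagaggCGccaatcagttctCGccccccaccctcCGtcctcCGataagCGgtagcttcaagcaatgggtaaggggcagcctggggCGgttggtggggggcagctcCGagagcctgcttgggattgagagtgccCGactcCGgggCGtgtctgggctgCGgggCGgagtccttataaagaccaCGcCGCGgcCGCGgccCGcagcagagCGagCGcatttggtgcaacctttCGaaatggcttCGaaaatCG

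The *Phlda2* window held 26 CG, more than 83.1% of the 32851 RefSeq windows, and the *Sfmbt2* window 16, more than 67.0%. The window of the other *Sfmbt2* start held 9, more than 54.2%. By symbol, 8 of the 10 genes matched the table, with 15 windows in all (*Peg10* and *Cdkn1c* did not match). Of these, 10 windows held at least 10 CG, beside 43.5% of all windows, from 2 CG at the first *Igf2* start to 45 at the first *Grb10* start. The hexamer TGCCGC, searched on both strands as the core of the sites that ZFP57 binds when methylated, was in 4 of the 15 windows (2 overlapping windows of *Mest*, 1 of *Igf2*, and 1 of *Grb10*), beside 11.6% of all windows. These are counts of letters only.

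In RNA-seq, 4 of the 10 genes were at or above 1 FPKM in both replicates (*Sfmbt2*, *Igf2*, *Igf2r*, and *Peg3*), and 7 were so in Ribo-seq. Over all symbols, 9025 and 9012 of 25039 were at or above 1 FPKM in RNA-seq replicates 1 and 2. In Ribo-seq replicates 1 and 2 the numbers were 9737 and 9343 of 20756. The limit of 1 FPKM is under 1 footprint for a short coding sequence. By the stricter measure of at least 3 fragments in both replicates, rounded to the nearest whole fragment, 7 genes reached the limit in mRNA and 5 in RPF (*Igf2*, *Igf2r*, *Sfmbt2*, *Peg3*, and *Peg10*). The order of mean mRNA was *Sfmbt2*, *Igf2*, *Igf2r*, *Peg3*, *Mest*, *Cdkn1c*, *Peg10*, *Ascl2*, *Grb10*, and *Phlda2*. Replicate ranges of neighbours were apart from *Sfmbt2* down to *Cdkn1c* and overlapped among *Cdkn1c*, *Peg10*, *Ascl2*, and *Grb10*. In RPF the order by FPKM began with *Igf2*, whose replicates lay above all others. *Sfmbt2* and *Igf2r* followed, with ranges that overlapped each other and lay above those of the other 7 genes. The counting intervals of *Igf2* (34.2 to 115 and 21.0 to 95.5 FPKM) overlapped those of *Sfmbt2* (26.5 to 47.0 and 13.3 to 29.9 FPKM). By the default effective length of Cufflinks, assumed here, RPF is 1.59-fold higher than per base for *Igf2* and 1.08-fold for *Sfmbt2*. The lead of *Igf2* is therefore not secure.

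**Figure D1:**
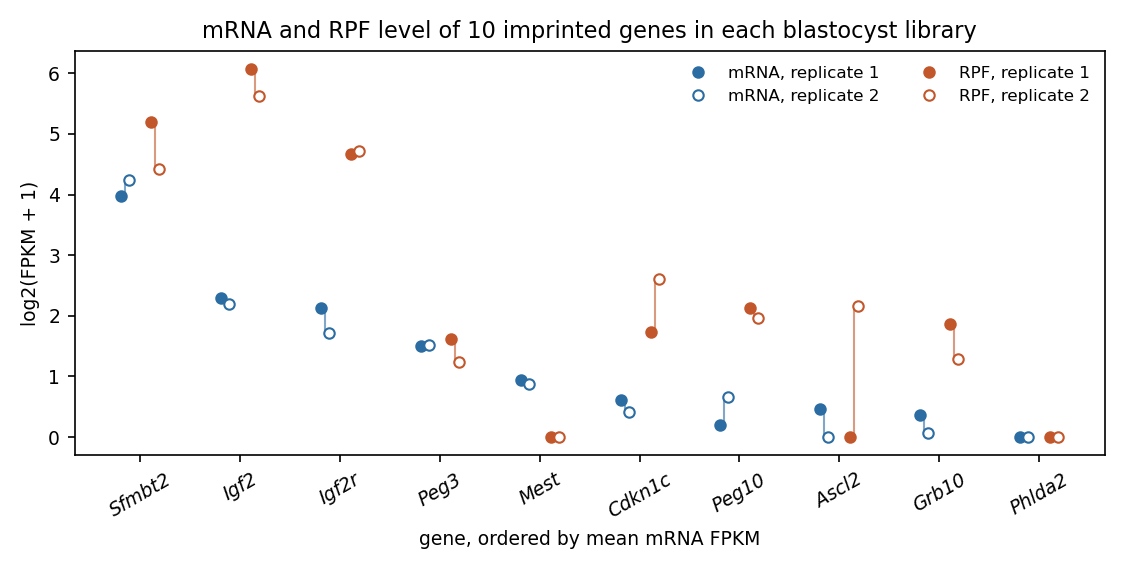
mRNA (blue) and RPF (orange) levels of the 10 imprinted genes, as log2(FPKM + 1) on the vertical axis, with filled points for replicate 1, open points for replicate 2, and a line joining the replicates. *Sfmbt2* is highest in mRNA and *Igf2* in RPF, *Mest* has mRNA but 0 RPF, and *Phlda2* is at 0 in all 4 libraries.

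*Igf2*, the fetal growth factor that signals through IGF1R and INSR, had mRNA of 3.89 and 3.57 FPKM and RPF of 66.1 and 48.6 FPKM in replicates 1 and 2. Both RPF values were above both mRNA values, and the replicates of each assay lay close together. The RPF values rested on about 12 and 8 footprints over a coding sequence of 543 bases, with intervals of 34.2 to 115 and 21.0 to 95.5 FPKM. At the median RPF to mRNA ratio, its mRNA would have given 2.06 and 1.56 footprints, below the lower bounds of 6.25 and 3.49 footprints. If the deposited values divide by the default effective length of Cufflinks, the setting assumed here, the RPF of such a small coding sequence is 1.59-fold higher than per base.

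*Igf2r*, the scavenger receptor that carries IGF2 to the lysosome, had mRNA of 3.35 and 2.30 FPKM and RPF of 24.5 and 25.3 FPKM. Its RPF replicates were nearly equal, while its mRNA was 1.45-fold higher in replicate 1, the replicate with more inner cell mass marker mRNA. Counting intervals of the mRNA did not overlap (2.85 to 3.91 and 1.88 to 2.79 FPKM). This gene had the most footprints of the 10, about 95 and 89 over 7452 coding bases, where its mRNA at the median ratio would have given 37.6 and 21.3.

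*Airn*, the noncoding RNA that silences the paternal *Igf2r* copy, was at 5.38 and 9.22 FPKM in RNA-seq. It was lower in replicate 1, the reverse of *Igf2r*. The *Airn* and *Igf2r* annotations overlap on opposite strands but share 0 exonic bases, and Smart-seq2 does not mark strand, so reads from unspliced *Airn* in the shared span cannot be told apart from those of *Igf2r*. *H19*, the noncoding neighbour of *Igf2*, was at 0.965 and 3.42 FPKM, and *Ins2*, the insulin gene of the same cluster, at 0 in all libraries. *Slc22a2* and *Slc22a3*, the imprinted transporters beside *Igf2r*, were at 0 in all libraries as well.

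*Grb10*, an adaptor that dampens insulin and IGF1 receptor signalling, had mRNA of 0.283 and 0.0426 FPKM and RPF of 2.63 and 1.45 FPKM. Its mRNA rested on about 8 fragments and 1 fragment and its RPF on about 2 and 1 footprints, so neither level was precise at this depth. The neighbour *Ddc*, a decarboxylase of the same cluster, had mRNA of 1.66 and 5.37 FPKM and RPF of 4.52 and 23.3 FPKM.

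The growth inhibitors of the *Kcnq1* cluster were at the limit of detection. *Cdkn1c*, a cyclin-dependent kinase inhibitor, had mRNA of 0.535 and 0.339 FPKM (about 5 and 3 fragments) and RPF of 2.32 and 5.12 FPKM (about 1 and 2 footprints). *Phlda2*, a pleckstrin homology domain protein that limits placental growth, was at 0 in all 4 libraries. For its coding sequence of 435 bases and transcript of 757 bases, 3 fragments were worth 0.979 and 1.04 FPKM in RNA-seq, and in Ribo-seq 24.0 and 26.4 FPKM. A count of 0 allows levels up to about those, so an absence of *Phlda2* was not shown. *Ascl2*, the transcription factor needed for spongiotrophoblast, had mRNA of 0.386 and 0 FPKM (about 3 fragments and 0) and RPF of 0 and 3.50 FPKM (0 and about 1 footprint). The replicates of *Ascl2* went opposite ways in the 2 assays, each on 3 fragments or fewer.

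Some other genes of the *Kcnq1* cluster were well above these. *Nap1l4*, a histone chaperone, had mRNA of 22.0 and 23.6 FPKM and RPF of 199 and 183 FPKM. *Tssc4*, a splicing factor, had RPF of 49.6 and 35.7 FPKM, *Cd81*, a tetraspanin, 25.8 and 16.2 FPKM, and *Osbpl5*, a lipid transfer protein, 13.9 and 11.1 FPKM. *Kcnq1ot1*, the noncoding RNA that silences the paternal copies of the cluster, was at 0.602 and 0.539 FPKM in RNA-seq, while the channel gene *Kcnq1* was at 0 in all libraries. The cluster thus ranged from genes at 0 to a gene near 200 FPKM of RPF in the same libraries.

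*Sfmbt2*, a Polycomb protein needed for trophoblast maintenance, had the highest mRNA of the 10 genes at 14.8 and 17.8 FPKM, above 87.9% and 89.0% of all symbols. Its RPF was 35.7 and 20.4 FPKM, about 50 and 26 footprints. Replicate 1 was lower in mRNA and higher in RPF, and the counting intervals of the RPF (26.5 to 47.0 and 13.3 to 29.9 FPKM) overlapped. At the median ratio its mRNA would have given 60.2 and 59.6 footprints, the first within the interval of replicate 1 (37.1 to 65.9) and the second above that of replicate 2 (17.0 to 38.1). Within its gene span, 119 miRNA genes were annotated, where a large miRNA cluster is known from an intron, and these mRNA values do not measure them.

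*Peg3*, a zinc finger protein linked to maternal care and fetal growth, had mRNA of 1.84 and 1.85 FPKM and RPF of 2.07 and 1.37 FPKM. The mRNA replicates were almost the same, and the 2 assays overlapped in FPKM. The RPF came from about 5 and 3 footprints over 4716 coding bases, where its mRNA at the median ratio would have given 12.9 and 10.6, above the upper bounds of 11.6 and 8.76 footprints. *Usp29*, beside *Peg3*, was near 0 in mRNA and had RPF of 3.10 and 0 FPKM, and *Zim1* was at 0 in all libraries.

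*Peg10*, derived from a retrotransposon and needed for the placenta to form, had mRNA of 0.143 and 0.573 FPKM and RPF of 3.36 and 2.92 FPKM. The mRNA replicates differed 4.01-fold on about 5 and 19 fragments, whereas the RPF replicates were close, with about 5 and 4 footprints. At the median ratio the mRNA would have given 0.623 and 2.06 footprints, below the interval of replicate 1 (1.65 to 11.7) and within that of replicate 2 (1.08 to 10.2). Its partner across a shared promoter region, *Sgce*, a sarcoglycan, had mRNA of 3.11 and 2.82 FPKM and RPF of 6.48 and 9.34 FPKM. Of the other 5 genes around *Peg10*, *Calcr*, *Asb4*, and *Tfpi2* were at 0 in all libraries, *Ppp1r9a* had RPF of 1.21 and 0.667 FPKM, and *Casd1* was at 0 in RPF.

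*Mest*, an α/β-hydrolase, had mRNA of 0.930 and 0.836 FPKM and RPF of 0 in both replicates. The mRNA rested on about 12 and 10 fragments. At the median ratio this would have given 1.16 and 0.860 footprints, so an RPF of 0 lay within what counting at this depth allows. In these libraries 3 footprints would have been 6.97 and 7.67 FPKM. *Copg2*, a coat protein gene on the opposite strand, overlaps the end of *Mest* by 904 of its 3937 exonic bases (23.0%) and had mRNA of 4.25 and 3.92 FPKM and RPF of 28.6 and 18.8 FPKM. Without strand, reads of the 2 genes in that overlap cannot be told apart, so the mRNA of *Mest* is uncertain.

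**Figure D2:**
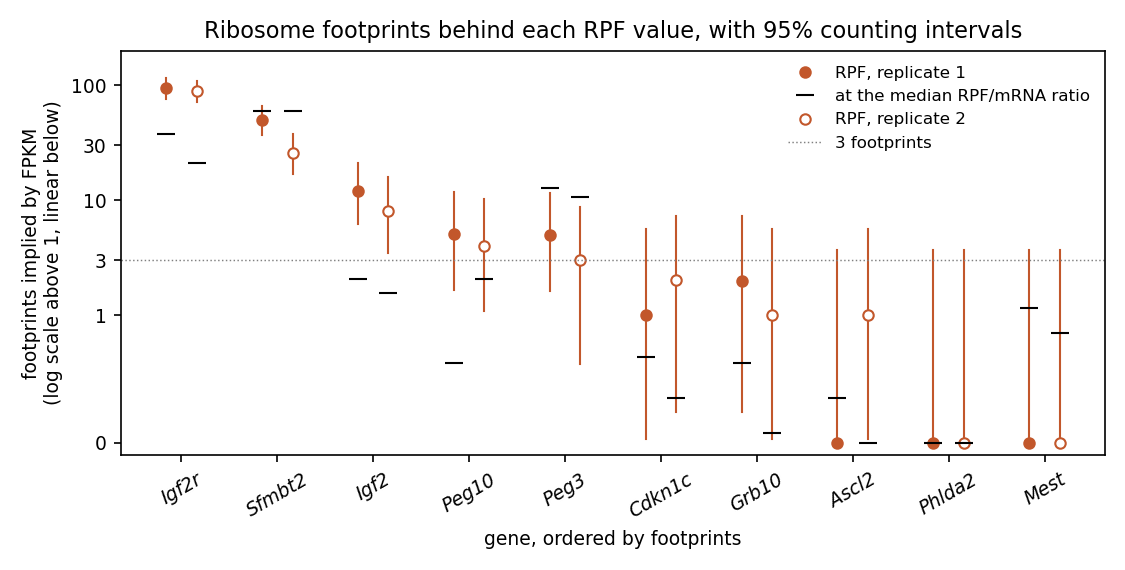
Footprints implied by each RPF value (points, filled for replicate 1 and open for replicate 2) with exact Poisson intervals at the 95% level, on a log scale above 1 and a linear scale below. Black dashes give the footprints each mRNA level would yield at the median RPF to mRNA ratio, and the dotted line marks 3 footprints. *Igf2*, *Igf2r*, and *Peg10* lie above their dashes and *Peg3* and *Sfmbt2* below them in both replicates, while *Mest*, *Ascl2*, *Grb10*, and *Cdkn1c* have at most about 2 footprints in a library.

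The ratio of RPF to mRNA, a measure of ribosome occupancy per transcript, was compared with that of other genes by limma on log2(FPKM + 1), with each library centred on its median. Of the 8327 genes tested, 996 (12.0%) passed an adjusted p of 0.05 with a log2 difference of at least 1, 554 (6.65%) with RPF higher and 442 (5.31%) with RPF lower. The median difference over all genes tested was −0.24, against which the differences below can be read. Of the 10 genes, 4 had a mean of at least 1 FPKM in both assays and could be tested, and 2 of these 4 passed, 1 in each direction. With so few genes, 2 calls carry no statement about imprinted genes as a group. An exact permutation test of 2 libraries against 2 cannot give a two-sided p below 0.333.

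*Igf2* had RPF higher relative to mRNA by 2.11 (SE 0.27, adjusted p = 0.030), a difference above 96.0% of those tested. The raw ratio was 17.0 in replicate 1 and 13.6 in replicate 2. Per coding base, an alternative chosen after the data were seen, the difference was 1.76 (adjusted p = 0.033), and it was again past the threshold. The call was lost in 3 of 13 alternatives, among them without RNA-seq replicate 1 (2.16, adjusted p = 0.310) or replicate 2 (2.05, adjusted p = 0.329). In these fits the lone RNA-seq library is assumed to vary like Ribo-seq, and 0 of the 8327 genes passed although 1293 and 1250 had an unadjusted p under 0.05. Over the 13 the difference lay between 1.76 and 2.38, with adjusted p from 0.0048 to 0.329.

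*Igf2r* had a difference of 1.27 (SE 0.28, adjusted p = 0.061) and did not pass, with raw ratios of 7.31 and 11.0. It passed with no filter on low values (1.54, adjusted p = 0.027), where 33.5% of all genes tested passed. Per coding base it passed as well (1.48, adjusted p = 0.044), with 14.7% of all genes. It also passed without Ribo-seq replicate 1 (1.33, adjusted p = 0.025) or replicate 2 (1.20, adjusted p = 0.037), but in these fits the lone Ribo-seq library is assumed to vary like the RNA-seq libraries, and 39.1% and 36.2% of all genes passed. Its 13 alternatives spanned an adjusted p of 0.025 to 0.367. Ligand and receptor thus both had an RPF to mRNA ratio above the median gene in both pairings by replicate number. That of the ligand passed the test.

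*Peg3* had RPF lower relative to mRNA by −1.58 (SE 0.26, adjusted p = 0.040), above only 11.7% of the genes tested, with raw ratios of 1.12 and 0.739. Its RPF lay within a few footprints of 0. The call was lost in 6 of 13 alternatives, among them without RNA-seq replicate 1 (−1.58, adjusted p = 0.312) or replicate 2 (−1.58, adjusted p = 0.329), with a pseudocount of 0.1 (−1.73, adjusted p = 0.061), with limma-trend (adjusted p = 0.133), and with quantile normalization, where the difference shrank to −0.60 (adjusted p = 0.172). Its adjusted p ran from 0.0081 to 0.329 over the 13.

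*Sfmbt2* had a difference of −0.80 (SE 0.35, adjusted p = 0.183) and did not pass, with raw ratios of 2.41 and 1.15. The gene passed, as lower, only without Ribo-seq replicate 1 (−1.15, adjusted p = 0.033, where the other 13 alternatives ran up to 0.550), again a fit with a lone Ribo-seq library assumed to vary like RNA-seq. The gene with the most mRNA of the 10 was therefore not the one with the highest RPF in FPKM. Its ratio was lower than that of *Igf2* in both pairings by replicate number.

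**Figure D3:**
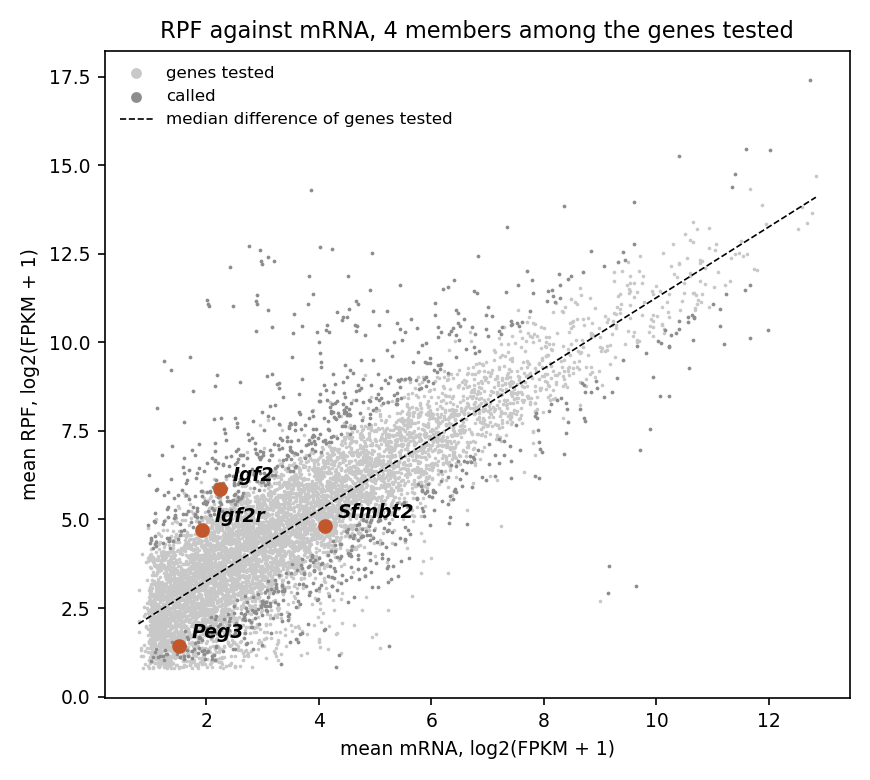
Mean RPF against mean mRNA, both as log2(FPKM + 1), for the 8327 genes tested (light grey), those that passed (dark grey), and the 4 imprinted genes that could be tested (orange). The dashed line is the median difference. *Igf2* and *Igf2r* lie above it and *Sfmbt2* and *Peg3* below it.

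By the smallest distance over the 4 libraries on the log2 scale, the genes most like each tested member were *Chtf8* for *Igf2* (distance 0.30), *Fam98a* for *Igf2r* (0.32), and *E2f7* for *Peg3* (0.25). The 3 nearest to *Sfmbt2* were *Nfkbib* (0.25), *Dedd* (0.25), and *Pex3* (0.26). *Chtf8*, for example, had mRNA of 4.23 and 3.62 FPKM and RPF of 80.5 and 50.7 FPKM. With 4 libraries of 2 assays, such likeness describes 4 values and no more.

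Among 53 imprinted genes (the 10 and 43 others), *Igf2* ranked 6th and 9th in RPF and 15th and 16th in mRNA. *Sfmbt2* ranked 7th and 6th in mRNA and 10th and 15th in RPF. Of the 43 others, 17 were at or above 1 FPKM in both RNA-seq replicates, 18 in both Ribo-seq replicates, and 14 were at 0 in all libraries, among them *Plagl1*, *Dlk1*, and *Dcn*. The highest RPF belonged to *Nap1l4*, to *Slc38a4*, an amino acid transporter of the placenta (178 and 162 FPKM), and to *Commd1*, a regulator of protein sorting (155 and 114 FPKM). Of the 43, 19 could be tested and 3 passed. *Snrpn*, a splicing factor subunit, was higher by 3.26 (adjusted p = 0.028) and *Nap1l4* by 1.51 (adjusted p = 0.039), while *Commd1* was lower (−1.84, adjusted p = 0.039). *Blcap* (1.39), *Inpp5f* (−1.38), and *Osbpl5* (−0.59) did not pass. The median over the 19 was −0.19, close to the −0.24 of all genes tested.

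The other genes known for H3K27me3-dependent imprinting, singled out after their values were seen, were measured next to *Sfmbt2*. *Gab1*, a docking protein of growth factor signalling, had mRNA of 17.5 and 16.7 FPKM, near that of *Sfmbt2*, and RPF of 52.0 and 37.1 FPKM. *Slc38a4* had mRNA of 42.9 and 38.7 FPKM. *Jade1*, a subunit of a histone acetyltransferase, had RPF of 26.0 and 22.4 FPKM, and *Smoc1*, a matrix protein, 22.6 and 8.91 FPKM. None of these 4 passed the test of the ratio, with differences from −0.19 (*Gab1*) to 1.29 (*Smoc1*).

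**Figure D4:**
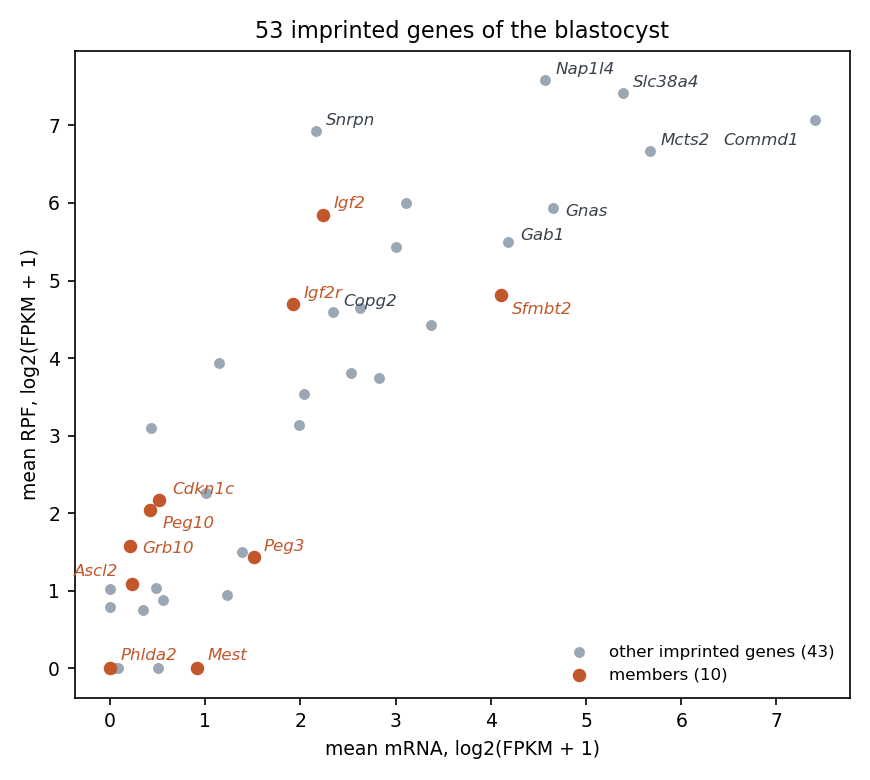
Mean RPF against mean mRNA, both as log2(FPKM + 1), of 53 imprinted genes, with the 10 growth and placental genes in orange and 43 others in grey. *Igf2*, *Igf2r*, and *Sfmbt2* stand among the expressed genes, and the other 7 lie in the lower left.

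The IGF and insulin axis around *Igf2* was uneven. *Igf1*, *Ins1*, and *Ins2* were at 0 in all libraries, as were *Igfbp1*, *Igfbp3*, *Igfbp4*, *Igfbp5*, and *Igfbp6*. *Igfbp2*, a secreted IGF-binding protein, was at 0 in both RNA-seq libraries but had RPF of 7.85 and 15.1 FPKM. For a sequence of 1000 bases, 3 fragments were worth 7.04 and 7.75 FPKM in Ribo-seq, so such values can rest on a few footprints. *Igf1r*, the main receptor of IGF2, was near 0, with mRNA of 0.0472 and 0.0332 FPKM and RPF of 0 and 1.05 FPKM, while *Insr*, the insulin receptor, had mRNA of 1.03 and 0.746 FPKM and RPF of 2.38 and 3.68 FPKM. Of 23 genes, 7 could be tested and 2 passed. *Igf2bp1*, an RNA-binding protein that binds *Igf2* mRNA, was higher by 2.75 (adjusted p = 0.023), with mRNA of 4.13 and 3.65 FPKM and RPF of 107 and 79.4 FPKM. The kinase *Akt2* was lower (−1.79, adjusted p = 0.032).

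The related *Igf2bp2* (1.21, adjusted p = 0.058) and *Igf2bp3* (−0.32, adjusted p = 0.632) did not pass, nor did the kinases *Akt1* (0.21) and *Mtor* (−0.85). Their RPF was 85.4 and 69.3 FPKM for *Igf2bp2* and 29.8 and 13.4 FPKM for *Igf2bp3*. The median of the 7 was −0.32.

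All 12 genes known to set up or protect imprints were at or above 1 FPKM in both assays and all replicates. The highest RPF belonged to *Dppa3*, which protects maternal methylation (1831 and 2086 FPKM), *Trim28*, the corepressor that ZFP57 recruits (368 and 355 FPKM), and *Dnmt3l*, a cofactor of DNA methylation (249 and 304 FPKM). *Trim28* was the only one of the 12 to pass, higher by 1.66 (adjusted p = 0.034). *Uhrf1* (1.10), *Ctcf* (0.89), *Setdb1* (−0.94), *Dnmt1* (0.02), and the PRC2 subunit *Eed* (0.01) did not. The median of the 12 was 0.28.

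Relatives of *Phlda2* and *Cdkn1c* ranged from 0 to over 100 FPKM of RPF. *Phlda3*, a p53 target of the same family as *Phlda2*, had mRNA of 5.00 and 9.21 FPKM and RPF of 96.5 and 118 FPKM, and passed as higher by 2.28 (adjusted p = 0.041). *Phlda1* had RPF of 12.9 and 36.5 FPKM. Of the relatives of *Cdkn1c*, *Cdkn1a* had RPF of 162 and 82.0 FPKM and *Cdkn1b* 14.4 and 63.3 FPKM, while *Cdkn2a* and *Cdkn2b* were at 0 in all libraries. *Cdkn2c* had mRNA of 11.4 and 7.63 FPKM but RPF of 0 in both replicates. With a mean RPF under 1 FPKM it was not tested, so it could not be called lower. Of those 6 inhibitors 3 could be tested (*Cdkn1b* 1.91, *Cdkn1a* 1.21, *Cdkn2d* −1.65). By limma 0 passed, with 2 at an unadjusted p under 0.05.

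Of 12 genes derived from retroelements as *Peg10* is, 9 were listed and only *Ldoc1* could be tested (−2.43, adjusted p = 0.353), with RPF of 0 and 24.5 FPKM. *Rtl8a* and *Rtl8b* had an identical RPF of 6.71 FPKM in replicate 1 and 0 in replicate 2. Their mRNA was 0.335 and 0.709 FPKM for *Rtl8a* and 0.168 and 0.355 FPKM for *Rtl8b*. Whether they share reads was not tested. Of the 9 noncoding RNAs of imprinted clusters, 8 were listed in RNA-seq, where *Airn* was the only one at or above 1 FPKM in both replicates.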

How the data were processed

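RNA-seq (Smart-seq2, polyA RNA) and Ribo-seq (the study's low-input protocol) of blastocysts were analysed, 2 libraries each. The authors deposited FPKM per gene and library. They trimmed reads (Trim Galore 0.4.2, cutadapt 1.14), discarded rRNA reads of Ribo-seq with Bowtie2 2.2.2, mapped to the mm9 transcriptome with STAR 2.5.3a with up to 20 places per read, and ran Cufflinks 2.2.1 on transcripts (RNA-seq) or coding sequences (Ribo-seq). None of the 28-base windows of the members' coding sequences occurred at more than 20 places (0%). Some occurred at several, with at most 15 places for *Peg10* (92.5% of windows at 1 place) and 3 for *Peg3* (94.9%). Reads at up to 20 places were kept, so this count does not show that each footprint came from its gene.

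Where a symbol was repeated, its highest FPKM was kept. The members and gene lists were chosen with earlier results of these data known. All members were named. Of each list, the 3 genes with the highest mean RPF and the 3 with the highest and the lowest difference were named, with the genes of each member's cluster, except a gene that is not reported here. The difference of RPF and mRNA was fitted with limma 3.58.1 in R 4.3.3 on log2(FPKM + 1), centred on the median of genes with a mean of at least 1 FPKM in both assays, with Benjamini-Hochberg adjustment over the 8327 genes tested. The pseudocount of 1 understates changes of low genes. Depth was inferred with the default effective length of Cufflinks (fragments of mean 200 and SD 80 bases). Coding lengths, overlaps, and start codons came from GENCODE vM1 on NCBIM37. Simulated data were used to test the depth estimate and the limma fit. The depth simulation used the same effective lengths, and the limma simulation was centred above the mRNA level of every member. Neither therefore tests the effective lengths or the fit at low levels. Python 3.11.15, numpy 2.4.6, scipy 1.17.1, pandas 2.3.3, and matplotlib 3.10.9 were used. Alternatives were the pseudocount, filters, scaling, limma-trend, summed symbols, the replicate number as a block, each library left out, and RPF per coding base.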

Additional observations from a re-analysis of the deposited data

How the results depend on the processing

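The count of genes that passed was 996 (12.0% of those tested), and with it 2 of the 10 members (4 tested) and 7 genes of the other lists. It was 462 (5.55%), 1, and 3 with a pseudocount of 0.1. With no filter on low values it was 4492 of 13402 genes (33.5%), 4 of 9 members tested, and 21 genes of the lists. *Mest* also passed there as lower, on an RPF of 0 where its mRNA at the median ratio would have given 1.16 and 0.860 footprints. With a mean of at least 5 FPKM in both assays only *Sfmbt2* could be tested and 0 members passed. With quantile normalization 1192 genes (14.3%) and 1 member passed, and with limma-trend 1577 genes (18.9%) and 1 member. Leaving out 1 library gave from 0 to 3255 genes, 0 to 4 members, and 0 to 16 genes of the other lists. With the replicate number as a block, 0 genes, 0 members, and 0 genes of the lists passed, although 2594 genes had an unadjusted p under 0.05 (*Igf2* adjusted p = 0.107, *Peg3* 0.110). Replicates of the same number did not deviate together (Pearson r = 0.0099 over 8327 genes), so the libraries share only a number. The cause of these changes was not tested. Upper quartile centring moved the median difference from −0.24 to −0.43 and the share of calls with RPF higher from 55.6% to 41.1%, and quantile normalization moved the median to −0.06. With a limit of 5 FPKM, 1 member was above it in both RNA-seq replicates and 3 in both Ribo-seq replicates, where the limit of 1 FPKM gave 4 and 7. The 4 members tested (*Igf2*, *Igf2r*, *Sfmbt2*, and *Peg3*) kept their direction under each alternative that tested them; the other 6 were not followed. Every member except *Igf2r*, *Sfmbt2*, and *Igf2* had about 5 footprints or fewer in each Ribo-seq library. The parts of depth, mRNA level, and RPF to mRNA ratio in this were not tested.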
